A study of Mus musculus with 7 samples.

Results

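The cytosolic ribosomal proteins are the proteins that, with the ribosomal RNAs, build the 2 subunits of the ribosome that translates nuclear-encoded messages. Their genes were taken from the deposited table as the protein-coding entries named Rpl or Rps with a number and at most 1 letter a, x, y or l with digits after it, together with Rplp0, Rplp1, Rplp2 and Rpsa. The rule found 83 of 54532 entries, 32 of the small subunit and 51 of the large subunit. A further 6 entries have such names but are annotated as pseudogenes and were not taken. Of the 83 genes, 80 averaged 1 FPKM or more and were tested among 12999 genes. FPKM is a read count scaled to gene length and library size. The 3 genes under that level are Rpl3l, Rpl10l and Rpl39l.

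RNA was sequenced from spleen cells of mice that carry a green fluorescent protein reporter of interleukin 17 (genotype IL-17GFP+). The cells had been sorted for that fluorescence after red cell lysis and are labelled Th17, the T helper cells that make interleukin 17. The 3 periodontitis libraries, numbered 2 to 4 by library name, came from mice with silk ligatures around the first molars of both lower jaw sides. Such ligatures inflame the gum and cause loss of the bone around the tooth. The 4 health libraries, numbered 1 to 4, came from mice of the same reporter genotype with no ligature. Neither age nor strain is stated in the labels. Whether a library stands for 1 mouse is not stated, and a p-value here speaks only for the scatter among libraries, which may be partly technical.

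Each ribosome holds 1 copy of nearly every ribosomal protein, and the P1 and P2 proteins of the stalk are the known exception. Most mammalian ribosomal protein messages start with a C and a run of pyrimidines, the terminal oligopyrimidine or TOP tract, through which mTORC1 and Larp1 set how much of the message is translated. Free Rpl5 and Rpl11 bind Mdm2 and so link ribosome assembly to p53. T cells make more ribosomes when they are activated and prepare to divide.

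The libraries held 13513806 to 16717942 reads in periodontitis and 14161438 to 17891393 reads in health. All 10 T cell marker genes listed for this check were higher in periodontitis, with summed levels of 1824 to 4305 FPKM in periodontitis and 275 to 638 FPKM in health. All 13 macrophage markers were lower, with sums of 421 to 976 FPKM in periodontitis and 5327 to 14774 FPKM in health. Each of these 23 genes passed the limma test at an adjusted p of 0.05, and all were above 0 in every library. The label of a T cell sort therefore stands beside strong macrophage signal, most of all in health 1, which had the highest macrophage sum and the lowest T cell sum. Of the other listed markers, 1 of 7 for B cells, 1 of 6 for plasma cells and 2 of 7 for erythroid cells were higher, 2 of 8 for neutrophils and 1 of 5 for dendritic cells were lower, and 0 of 5 for NK cells passed in either direction by limma, 0 of them at an unadjusted p under 0.05. Without periodontitis 2, 7 of the 10 T cell markers and all 13 macrophage markers still passed. Xist, the X inactivation RNA, was at 0.135 to 1.35 FPKM in periodontitis and 52.1 to 72.5 FPKM in health. The Y-linked gene Ddx3y was at 9.22 to 16.9 FPKM in periodontitis and was listed at 0 in health. Ligature, sex-linked expression and cell makeup cannot be told apart in this design, and fewer cells of a type cannot be told apart from less RNA per cell.

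The start-site sequence of some of the genes the results turn on is shown for its TOP tract. The windows run from 15 bases before to 15 bases from the annotated start, which is the 16th letter, on the strand of the gene. They come from RefSeq on GRCm38.p6, whose table held 63 of the 83 genes. The longest run of C and T is in capitals. Rps6 is the small subunit protein phosphorylated by S6 kinases, Rplp2 is a stalk protein and Rpl38 a small protein of the large subunit. Rps27 and its paralog Rps27l are shown because their levels parted, and Rpl24 because it alone passed the test over all libraries.
Rps6 (chr4:86857353-86857382, minus strand): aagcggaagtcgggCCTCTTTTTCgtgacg
Rplp2 (chr7:141447636-141447665, plus strand): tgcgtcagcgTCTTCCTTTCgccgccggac
Rpl38 (chr11:114668565-114668594, plus strand): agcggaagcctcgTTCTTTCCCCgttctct
Rps27 (chr3:90213634-90213663, minus strand): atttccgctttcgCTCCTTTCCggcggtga
Rps27l (chr9:66946071-66946100, plus strand): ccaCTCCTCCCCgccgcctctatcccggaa
Rpl24 (chr16:55966260-55966289, plus strand): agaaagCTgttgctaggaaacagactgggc

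In Rps6, Rplp2, Rpl38 and Rps27 the run spans the annotated start. The start base lay in the longest run in 27.0% of the ribosomal protein windows and 11.2% of all windows. The windows shown are thus not typical of the family. In Rplp0 and Rpl19, which are not shown, the longest run has 5 bases and ends before the start. In Rps27l a run of 9 bases lies wholly before the start, and in Rpl24 the longest run is 2 bases. A run of at least 8 bases of C and T was present in 25 of the 63 ribosomal protein windows (39.7%) and in 11.9% of all 27018 windows. The letters CTTTC, read on the gene's strand, were in 25.4% of the ribosomal protein windows and 3.97% of all windows. The start base was C in 33.3% of the ribosomal protein genes and in 16.2% of all genes. The letters CCGGAA, the core bound by ETS family factors, were found on either strand in the 250 bases before the start of 39.7% of the ribosomal protein genes and 12.2% of all genes. A TATAAA in the 40 bases before the start was found in 1.59% of the ribosomal protein genes and 2.55% of all genes. These matches describe the annotated starts, which need not be the starts used in these cells, and they were not tied to any measured difference.

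The ribosomal protein messages were far more abundant in 1 periodontitis library than in any other library. They took 12.6% of the reads in periodontitis 2 (95% Wilson interval 12.60 to 12.63), 4.72% in periodontitis 3 (4.713 to 4.735) and 6.08% in periodontitis 4 (6.068 to 6.094). In health 1 to 4 they took 3.02% (3.011 to 3.027), 4.62% (4.614 to 4.635), 5.24% (5.228 to 5.250) and 4.97% (4.959 to 4.982). Only periodontitis 2 stood well above the health libraries, and periodontitis 3 lay within their range. These intervals cover counting error only. Periodontitis 2 was also the highest of the 7 libraries in the summed T cell, erythroid, B cell and NK markers. The erythroid sum was 17734, 5466 and 9496 FPKM in periodontitis 2, 3 and 4, against 2343 to 4160 FPKM in health. The neutrophil sum was 21017, 5685 and 4938 FPKM in periodontitis, against 13683 to 22194 FPKM in health. The part of these cells in the ribosomal protein share was not tested. The share averaged 7.81 ± 4.22% in periodontitis (SD, n = 3) and 4.46 ± 0.995% in health (SD, n = 4).

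The median of the 80 tested genes was 755, 230 and 302 FPKM in periodontitis 2, 3 and 4, against 194, 250, 280 and 288 FPKM in health 1 to 4. The median of all 12999 tested genes was 6.54 to 6.81 FPKM in periodontitis and 7.08 to 7.35 FPKM in health. The middle of the whole distribution thus did not rise with them. The FPKM totals were unequal, at 568848, 475268 and 526989 in periodontitis 2, 3 and 4 and 375857 to 379328 in health. Of the 80 genes, 78 had their highest value of the 7 libraries in periodontitis 2. The exceptions were Rpl24, highest in periodontitis 4, and Rps10, highest in health 3. In periodontitis 4, 51 of the 80 genes lay above every health library and 7 below every one. In periodontitis 3 only 4 lay above every health library and 19 lay below. No share over all genes is given beside these counts by library. Of each library's FPKM total the family took 16.3%, 5.36% and 6.67% in periodontitis 2, 3 and 4, and 5.47% to 8.37% in health. By that share periodontitis 4 lay within the range of health and periodontitis 3 below it. Within health, 76 of the 80 genes were lowest in health 1.

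**Figure D1:**
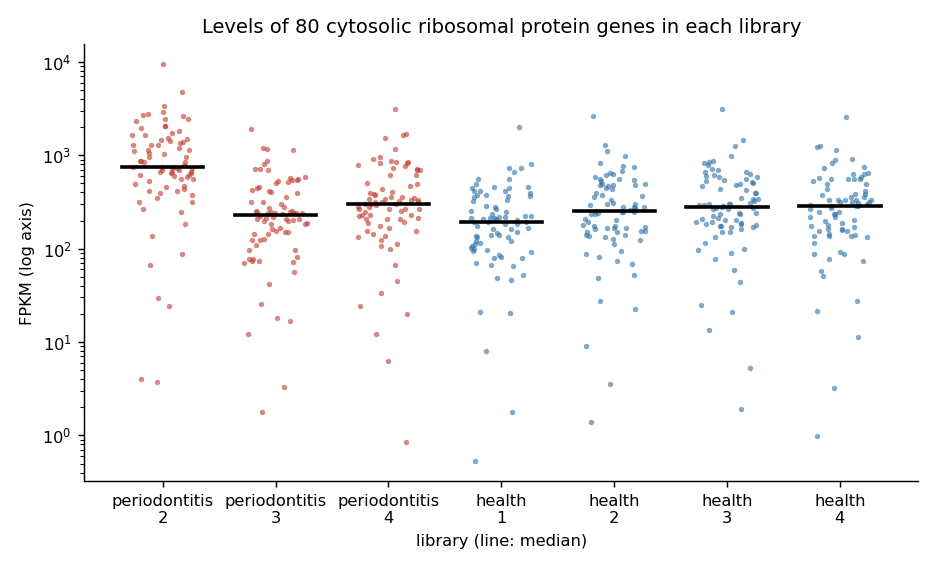
FPKM on a log axis of the 80 tested ribosomal protein genes (points, 1 per gene) in the 3 periodontitis libraries (red) and the 4 health libraries (blue), with the median of each library as a black line. The median is 755 FPKM in periodontitis 2 and between 194 and 302 FPKM in the other 6 libraries.

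Between the groups, 76 of the 80 genes had a higher average in periodontitis on the log2(FPKM + 1) scale, on which fold changes of low genes are understated. The median log2 change was 0.64, beside -0.06 over all genes tested. Yet with limma, Benjamini-Hochberg adjustment over all 12999 genes and a threshold of 0.05, only Rpl24 was called higher and no gene was called lower. Over all genes, 5.63% were called higher and 10.2% lower, so 1 of 80 is below that background. Unadjusted p-values under 0.05 numbered 2, both higher. No share over all genes is given beside counts at an unadjusted p, here or below. The groups did not overlap, all 3 periodontitis libraries being above all 4 health libraries, for Rpl19, Rpl24, Rplp0 and Rps6. For 0 of the 80 were all periodontitis libraries lower, while over all genes the groups did not overlap in 12.6% (higher) and 17.2% (lower). The standard error of a log2 change was 0.44 at the median gene and reached 0.76, since the 3 periodontitis libraries lay so far apart.

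Without periodontitis 2 the median log2 change of the 80 genes was 0.16 and 56 of them were above 0. No gene was then called higher, against 4.68% of all genes, and Rps27l and Rps29 were called lower, against 8.92% of all genes. At an unadjusted p under 0.05, 1 was higher and 4 were lower in that comparison. Against the mean of the 4 health libraries, the median difference was 1.68 in periodontitis 2, -0.09 in periodontitis 3 and 0.42 in periodontitis 4. Under every scaling tried the median of the ribosomal protein genes stayed above 0 and above that of all genes. Scaling to the same FPKM total gave a median of 0.17 for the ribosomal protein genes and of -0.44 for all genes.

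The deposited gene length matters here because, by the median, shorter genes outside the family were also higher in periodontitis 2. Among the 80 tested ribosomal protein genes the median log2 difference of periodontitis 2 from health was 1.82 for genes under 1000 bases, 1.78 from 1000 and under 2000, 1.61 from 2000 and under 3000, 1.604 from 3000 and under 5000, and 1.80 for 5000 bases and over, with 12, 33, 19, 14 and 2 genes. Other genes averaging 20 FPKM or more were at 1.38, 0.95, 0.50, 0.07 and -0.36 in the same classes. The class medians of the family thus hardly varied with the deposited gene length. The gap to other genes was 0.44 in the shortest class and widened to 2.16 in the longest. The deposited length overstates most ribosomal protein messages, so a class can set messages of unlike length side by side. Over the 80 genes, Spearman's rho of the difference in periodontitis 2 was -0.24 with deposited gene length and -0.44 with the length of the main coding transcript. In periodontitis 4 the ribosomal protein genes under 1000 bases were at 0.17 and other short genes at 0.76, the reverse order. In periodontitis 3 the ribosomal protein genes were between -0.21 and 0.06 in every class. These class medians are descriptions and were not tested.

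**Figure D2:**
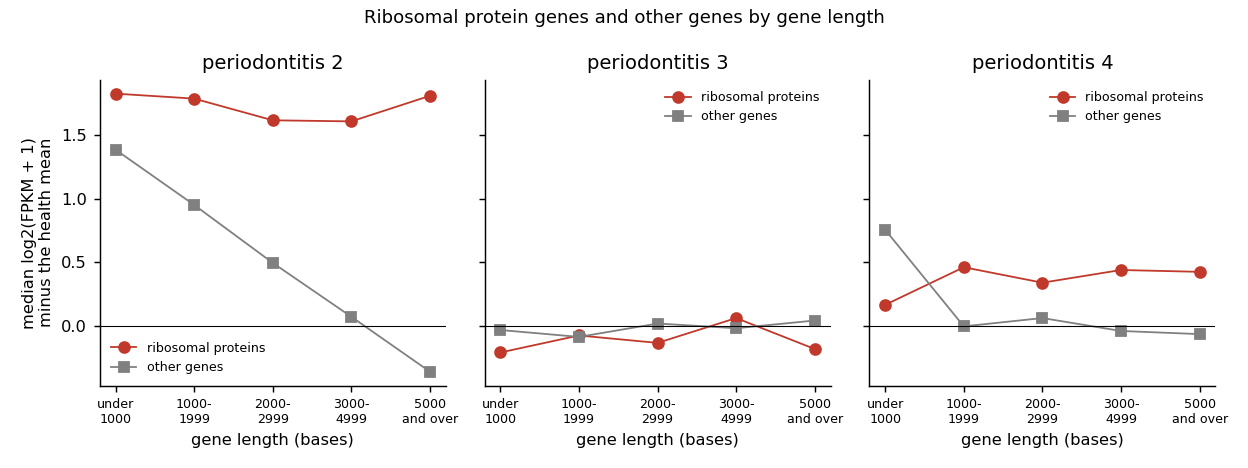
Median log2(FPKM + 1) difference from the health mean by class of gene length, for ribosomal protein genes (red circles) and other genes averaging 20 FPKM or more (grey squares), in each periodontitis library. In periodontitis 2 the ribosomal protein genes keep between 1.604 and 1.82 in every class, while other genes are at 1.38 in the shortest class and -0.36 in the longest.

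Within the family, the length of the protein ordered the differences, and in opposite ways in different libraries. The deposited gene length counts every annotated exon and so overstates most of these messages, whose main coding transcript had a median of 768 bases beside 1776 bases of deposited gene length. Across the 80 genes, Spearman's rho of the difference from health with the number of residues was -0.58 in periodontitis 2, 0.70 in periodontitis 3 and 0.49 in periodontitis 4. The health libraries, each against the mean of the others, gave 0.06, -0.04, -0.54 and 0.45. Genes share libraries and are not independent, so these are descriptions. Health 3 and health 4 thus differed from each other by protein length too.

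The 10 genes with at most 100 residues had a median difference of 2.08 in periodontitis 2, -0.65 in periodontitis 3 and -0.16 in periodontitis 4. The 28 genes with over 100 and up to 150 residues were at 1.80, -0.20 and 0.28. The 19 genes with over 150 and up to 200 residues were at 1.74, 0.07 and 0.58. The 23 longer ones were at 1.44, 0.10 and 0.51. By these medians the smallest proteins had the highest values of the classes in periodontitis 2 and the lowest in periodontitis 3 and 4. Not every gene did so: of the 10 smallest, 9 lay below the health mean in periodontitis 3 and 6 in periodontitis 4.

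**Figure D3:**
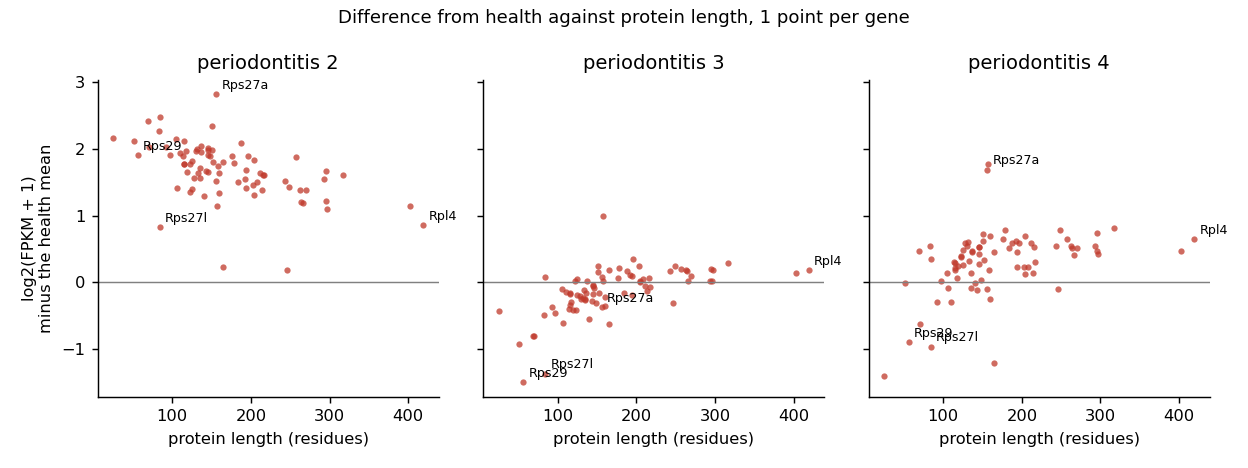
Difference of log2(FPKM + 1) from the health mean (vertical) against the number of residues of the protein (horizontal), 1 point per tested gene, in periodontitis 2, 3 and 4. The points slope down in periodontitis 2 (rho -0.58) and up in periodontitis 3 and 4 (rho 0.70 and 0.49).

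Rpl41, Rpl38 and Rpl39 are small proteins of the large subunit. All are among the 10 genes with the smallest log2 change relative to the mean of the family. Low values in periodontitis 3 and 4 are thus in part built into their choice. Rpl41, the shortest at 25 residues, had 2456, 407 and 206 FPKM in periodontitis 2, 3 and 4, against 450, 672, 781 and 385 FPKM in health 1 to 4. Rpl38, needed in mouse for translation of some Hox messages, had 1423, 198 and 224 FPKM in periodontitis, against 269, 355, 475 and 315 FPKM in health. Rpl39, X-linked and placed at the exit tunnel, had 613, 73.1 and 138 FPKM in periodontitis, against 111, 127, 171 and 157 FPKM in health. In each, periodontitis 2 was above every health library and periodontitis 3 or 4 was at the low end of health or below it. None passed the limma test, with log2 changes of 0.11, 0.20 and 0.40 and adjusted p of 0.940, 0.863 and 0.706, and the sign of all 3 turned negative without periodontitis 2. Rps27, a small subunit protein with 84 residues, did not share this. Its values in periodontitis 3 and 4 lay within the range of health, and its log2 change without periodontitis 2 was 0.22.

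To compare the genes with each other, each library's mean over the 80 genes was subtracted before a second limma fit over all genes. On this relative scale 0 of the 80 were called higher and 0 lower at an adjusted p of 0.05, against 1.2% and 9.07% of all genes, and 2 had an unadjusted p under 0.05, both lower. The relative log2 changes ran from -1.15 to 0.76. On the same scale the groups did not overlap for 10 genes that were higher and 5 that were lower, beside 1.98% and 17.7% of all genes. Rpl8, Rpl11, Rpl18, Rpl19, Rps13 and Rps14 were among the 10, and the 5 were Rpl21, Rpl23, Rpl36a, Rps10 and Rps27l. Subtracting the family's mean moved the median of all genes to -0.68, which bears on that background. Without periodontitis 2 the relative fit called Rps27l and Rps29 lower and none higher, beside 6.11% and 2.76% of all genes.

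**Figure D4:**
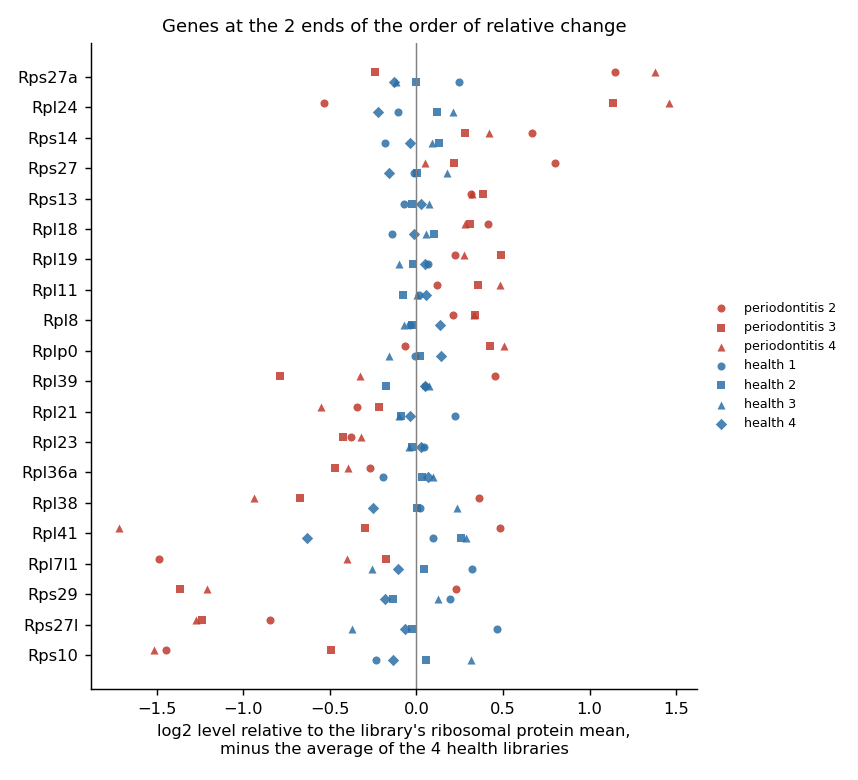
Level of each gene relative to the library's mean over the 80 ribosomal protein genes, on the log2 scale and set to 0 at the health average, for the 10 genes with the largest and the 10 with the smallest relative change, chosen by that change. Red symbols are the 3 periodontitis libraries and blue symbols the 4 health libraries; Rps27l lies below every health library in all 3 periodontitis libraries.

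Rps27l encodes a close paralog of the small subunit protein Rps27 and is known as a p53 target in human and mouse cells. It had 87.5, 18.2 and 24.5 FPKM in periodontitis 2, 3 and 4, against 51.8, 49.0, 43.9 and 50.7 FPKM in health 1 to 4. Periodontitis 3 and 4 were below every health library, while periodontitis 2 was above. Relative to the mean of the family it was at -2.97, -3.37 and -3.40 in periodontitis, against -1.66, -2.16, -2.50 and -2.19 in health, and there the groups did not overlap. The log2 change over all libraries was -0.50 (SE 0.47, adjusted p = 0.508) and the relative one -1.12 (SE 0.46, adjusted p = 0.130, limma). Without periodontitis 2 it fell by 1.17 on the log2 scale (SE 0.18, adjusted p = 0.00954), and by 1.26 on the relative scale (adjusted p = 0.0381). The log2 change stayed below 0 under each alternative run, between -1.17 and -0.07.

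Rps27 itself did not share this pattern. It had 1654, 314 and 380 FPKM in periodontitis, against 225, 304, 391 and 288 FPKM in health, with a log2 change of 0.97 (SE 0.56, adjusted p = 0.283, limma). Rps27l therefore came to 5.29%, 5.80% and 6.44% of Rps27 in periodontitis, or 5.84 ± 0.574% (SD, n = 3). In health it came to 23.0%, 16.1%, 11.2% and 17.6%, or 17.0 ± 4.87% (SD, n = 4). All 3 periodontitis libraries were below all 4 health libraries, periodontitis 2 included, and the ratio was not tested. Of the Rps27 message 98.7% repeats in other genes in stretches of 50 bases, the retrogene Rps27rt among them. Rps27rt is listed apart from Rps27, but how well their reads were told apart is not known. Against Rps27 and Rps27rt together, Rps27l was at 4.004 ± 0.441% in periodontitis (SD, n = 3) and 9.78 ± 3.66% in health (SD, n = 4).

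**Figure D5:**
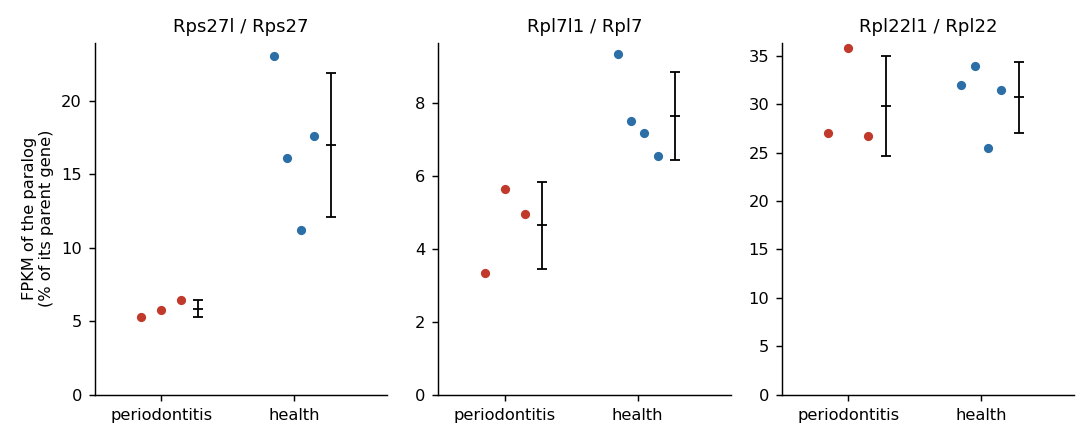
FPKM of 3 paralogs as a percentage of their parent gene in the periodontitis libraries (red, left) and the health libraries (blue, right), with mean and SD in black. Rps27l is at 5.29% to 6.44% of Rps27 in periodontitis and 11.2% to 23.0% in health, while Rpl22l1 over Rpl22 overlaps between the groups.

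The other paralogs did not all do the same. Rpl22l1, which can take the place of Rpl22, had 66.1, 25.4 and 33.1 FPKM in periodontitis, against 20.9, 27.5, 24.8 and 27.6 FPKM in health. Rpl22, whose loss in mouse blocks development of αβ T cells, had 244, 71.0 and 124 FPKM in periodontitis, against 65.4, 81.2, 97.5 and 88.0 FPKM in health. Their ratio was 29.8 ± 5.15% in periodontitis (SD, n = 3) and 30.7 ± 3.66% in health (SD, n = 4), a difference smaller than either spread. Rpl7l1, a nucleolar protein related to Rpl7, was at 24.4, 17.0 and 19.9 FPKM in periodontitis, against 20.4, 22.5, 20.8 and 21.5 FPKM in health. Rpl7 had 734, 302 and 401 FPKM in periodontitis, against 218, 301, 290 and 329 FPKM in health, which did not pass the limma test (log2 change 0.66, adjusted p = 0.248). The ratio of Rpl7l1 to Rpl7 was 4.64 ± 1.18% in periodontitis (SD, n = 3) and 7.64 ± 1.20% in health (SD, n = 4). Every periodontitis library was below every health library in that ratio, which was not tested.

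The 3 paralogs under the level for testing were close to silent. Rpl3l, the striated muscle form of Rpl3, had 31 reads in the periodontitis libraries together and 1 in health, and 28 of the 31 were in periodontitis 2. Rpl39l, the testis-enriched form of Rpl39, had 42 reads in periodontitis, all in periodontitis 2, and 27 in health. Rpl10l, the testis form of Rpl10, had 0 reads in every library, which allows up to 0.174 to 0.207 FPKM in a library at a limit of 3 reads.

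Rps29, a zinc-binding protein of the small subunit with 56 residues, differed more between periodontitis 2 and the mean of periodontitis 3 and 4 than any other tested gene of the family, by 8.46 times. It had 1952, 183 and 278 FPKM in periodontitis 2, 3 and 4, against 457, 486, 661 and 498 FPKM in health 1 to 4. Periodontitis 2 was above every health library and the other periodontitis libraries were below every one. The log2 change was -0.16 (SE 0.73, adjusted p = 0.899, limma) and ran from -1.20 to 0.50 over the alternatives. Without periodontitis 2 it fell by 1.20 (SE 0.27, adjusted p = 0.0298), and by 1.29 relative to the family (adjusted p = 0.0120). Rps29 thus passed the test without periodontitis 2, where Rpl39, Rpl38 and Rpl41, with 51, 70 and 25 residues, did not. In that comparison their log2 changes were -0.47, -0.72 and -0.92, with adjusted p of 0.345, 0.128 and 0.183 (limma). The difference between Rps29 and these genes was not tested.

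Rps27a, which encodes ubiquitin joined to a small subunit protein, had the largest log2 change of the family. It had 663, 71.5 and 301 FPKM in periodontitis, against 84.4, 94.96, 99.95 and 92.2 FPKM in health. Periodontitis 2 and 4 were above every health library and periodontitis 3 was below every one. The log2 change was 1.38 (SE 0.63, adjusted p = 0.184, limma). Without periodontitis 3 it was 2.26 with an adjusted p of 0.0107, and that single library decides the call.

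The stalk genes encode the proteins that recruit elongation factors. Rplp1, the most abundant member by either length, had 9517, 1922 and 3150 FPKM in periodontitis, against 1991, 2623, 3102 and 2580 FPKM in health. Rplp2 had 1209, 248 and 316 FPKM in periodontitis, against 167, 330, 342 and 314 FPKM in health. In both, periodontitis 3 lay within or below the range of health, and their log2 changes were 0.60 (SE 0.62, adjusted p = 0.550) and 0.72 (SE 0.56, adjusted p = 0.419, limma). Rplp0, the base of the stalk, had 2891, 1159 and 1665 FPKM in periodontitis, against 725, 986, 992 and 1137 FPKM in health. The groups did not overlap for Rplp0, but its log2 change of 0.90 (SE 0.42, adjusted p = 0.194, limma) did not pass.

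Rps6, Rpsa and Rpl19 are among the longer proteins. Rps6 had 1291, 566 and 822 FPKM in periodontitis, against 364, 493, 510 and 562 FPKM in health, with no overlap. Its log2 change was 0.82 (95% interval -0.02 to 1.66, adjusted p = 0.172, limma). Rpsa, also known as the laminin receptor precursor, had 1510, 541 and 791 FPKM in periodontitis, against 327, 527, 545 and 525 FPKM in health. Here periodontitis 3 lay inside the range of health, and the log2 change was 0.87 (adjusted p = 0.199, limma). Rpl19 had 2076, 710 and 833 FPKM in periodontitis, against 448, 562, 605 and 626 FPKM in health, again with no overlap, and a log2 change of 0.95 (adjusted p = 0.178, limma).

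Rpl5 and Rpl11 are the Mdm2-binding pair. Relative to the mean of the family their log2 changes were -0.05 and 0.32. On that scale the groups overlapped for Rpl5 and not for Rpl11. Rpl5 had 391, 206 and 244 FPKM in periodontitis, against 132, 167, 208 and 237 FPKM in health. Rpl11 had 609, 204 and 303 FPKM in periodontitis, against 135, 170, 205 and 198 FPKM in health. Periodontitis 3 was within the range of health for both. Their log2 changes were 0.57 (adjusted p = 0.274) and 0.94 (95% interval 0.06 to 1.81, adjusted p = 0.142, limma). Rps19, mutated in Diamond-Blackfan anaemia in people, had 581, 150 and 206 FPKM in periodontitis, against 98.0, 165, 195 and 175 FPKM in health, and a log2 change of 0.77 (adjusted p = 0.313, limma).

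The 4 X-linked genes tested, Rpl10, Rpl36a, Rpl39 and Rps4x, had a median log2 change of 0.43, and the 76 autosomal genes one of 0.64. Rpl10 had 1035, 359 and 432 FPKM in periodontitis, against 373, 391, 397 and 414 FPKM in health. Rps4x had 1274, 553 and 713 FPKM in periodontitis, against 372, 487, 553 and 560 FPKM in health. Rpl36a had 318, 78.0 and 112 FPKM in periodontitis, against 79.6, 125, 149 and 136 FPKM in health. As in the family at large, periodontitis 2 stood above health in each, and none passed the limma test, with adjusted p of 0.241 to 0.767. By subunit, the 31 small subunit genes had a median log2 change of 0.71, the 43 large subunit genes outside the stalk and the paralogs 0.59, and the 3 stalk genes 0.72. The 3 tested paralogs had a median of -0.07.

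Rpl24, the only gene called over all libraries, is listed at a level that sets it apart from the family. It had 3.72, 3.29 and 6.30 FPKM in periodontitis 2, 3 and 4, against 0.526, 1.38, 1.90 and 0.992 FPKM in health 1 to 4. The groups did not overlap, and it rose by 1.30 on the log2 scale (SE 0.33, adjusted p = 0.0304, limma). The call did not hold without health 1, health 2, health 4, periodontitis 2 or periodontitis 4, with adjusted p of 0.0561 to 0.0752 and log2 changes of 1.07 to 1.39. The values rest on 57, 57 and 92 reads in periodontitis and 9, 24, 31 and 15 reads in health. Of its main message 71.5% lies under exons of the overlapping transcript Gm28037 on the same strand. Rps10 and Rpl13a, the next lowest of the standard members, overlap in the same way with RPS10-NUDT3 (63.6%) and Gm45713 (59.3%). These 3 partners are listed at 0 in every library, so the 3 levels are uncertain.

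Rps10 had 4.02, 1.78 and 0.854 FPKM in periodontitis, against 1.80, 3.57, 5.24 and 3.24 FPKM in health. Rpl13a had 30.0, 12.3 and 12.2 FPKM in periodontitis, against 8.07, 9.05, 13.6 and 11.3 FPKM in health. In both the groups overlapped. The pseudogene Rps10-ps2 was listed at 1684, 433 and 576 FPKM in periodontitis, against 353, 502, 528 and 470 FPKM in health, a level usual for the family. Counting could have moved reads between such copies elsewhere too, since 48 of the 83 genes share over 50% of their main message with other genes in stretches of 50 bases.

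The remaining genes at the upper end of the relative order were highest in periodontitis 2. Rps14 had 2667, 583 and 873 FPKM in periodontitis, against 356, 590, 654 and 556 FPKM in health (log2 change 1.07, adjusted p = 0.216, limma). Rpl8 had 2776, 865 and 1174 FPKM in periodontitis, against 563, 757, 833 and 896 FPKM in health (log2 change 0.91, adjusted p = 0.225). In both, periodontitis 4 was above every health library and periodontitis 3 was not. Rpl18 and Rps13 were alike, with log2 changes of 0.95 and 0.96 and adjusted p of 0.204 and 0.169.

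At the lower end, Rpl23 had 659, 182 and 266 FPKM in periodontitis, against 212, 270, 304 and 297 FPKM in health (log2 change 0.24, adjusted p = 0.741, limma). Rpl21 had 138, 42.1 and 45.5 FPKM in periodontitis, against 48.4, 52.1, 58.9 and 57.3 FPKM in health (log2 change 0.25, adjusted p = 0.710). For both genes periodontitis 3 was below every health library and periodontitis 2 above every one. Rpl36, the shortest gene at 383 bases, had 3389, 714 and 840 FPKM in periodontitis, against 562, 826, 870 and 834 FPKM in health. Rps15a, the longest at 6270 bases, had 266, 56.5 and 98.0 FPKM in periodontitis, against 45.9, 73.5, 77.5 and 77.9 FPKM in health. Their log2 changes were 0.73 and 0.75, with adjusted p of 0.413 and 0.329 (limma). Their proteins are nearer in length, at 105 and 130 residues, and the part of gene length in these 2 genes was not tested.

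The naming rule leaves out 8 entries that are ribosomal proteins or close copies, and 0 of these passed the limma test, 0 at an unadjusted p under 0.05. Without periodontitis 2, Rpl37rt, a copy of Rpl37, was called lower (log2 change -0.96, adjusted p = 0.0341, limma). It had 202, 25.9 and 21.4 FPKM in periodontitis 2, 3 and 4, against 35.3, 55.5, 51.8 and 47.3 FPKM in health 1 to 4. Fau, a ubiquitin-like fusion that yields a small subunit protein, had 4390, 992 and 1526 FPKM in periodontitis, against 771, 1112, 1287 and 1035 FPKM in health. Rack1, the scaffold on the head of the small subunit, had 562, 207 and 289 FPKM in periodontitis, against 148, 186, 197 and 211 FPKM in health. Both were highest in periodontitis 2, like the family. The median log2 change of the 8 entries was 0.50. For 17 other genes with TOP messages it was 0.46, with 0 passing by limma and 3 higher at an unadjusted p under 0.05.

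By their quartiles, the levels of the family lay closer together per base of the main message than per base of the deposited gene. The upper quartile of the 80 mean levels was 3.09 times the lower one on the deposited gene length and 2.05 times on the main message. The SD of these levels on the log2 scale hardly differed, at 1.72 on the deposited gene length and 1.67 on the main message. On the main message the highest means over the 7 libraries were 3555 FPKM for Rplp1, 2215 for Rps15, 2200 for Rps9 and 2080 for Rps14. After Rpl24, Rps10 and Rpl13a the lowest tested genes were the paralogs Rpl7l1 at 28.1 and Rps27l at 76.1 FPKM. Pearson's r of the 80 log2 levels between libraries was 0.985 to 0.996 among the health libraries, 0.938 to 0.983 between periodontitis and health and 0.949 to 0.977 among the periodontitis libraries. These r values rest in part on the wide range of levels. After the mean of each library was removed, the SD over the 80 genes of the log2 difference from the health average was 0.43, 0.36 and 0.49 in periodontitis 2, 3 and 4, against 0.16, 0.10, 0.14 and 0.14 in health 1 to 4, which are themselves part of that average.

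Other parts of the translation machinery had lower median differences in periodontitis 2 than the 1.68 of the ribosomal proteins. Median log2 differences from health in periodontitis 2, 3 and 4 were 0.85, 0.01 and 0.27 for 11 elongation factors and 0.38, 0.08 and 0.08 for 39 initiation factors. For 61 ribosome biogenesis genes they were 0.06, 0.05 and 0.12. The mitochondrial ribosomal proteins were at 1.08, -0.01 and 0.17 over 77 genes, and nuclear-encoded subunits of the respiratory chain at 1.46, -0.10 and 0.23 over 83 genes. The last 2 families are also made of short genes, with median gene lengths of 2255 and 1569 bases, against 3837 bases for the biogenesis genes. None of these differences between lists was tested.

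Few genes of these lists passed the limma test, which over all genes called 5.63% higher and 10.2% lower. Of the elongation factors and their regulators 1 of 11 was lower, the kinase Eef2k, which inhibits elongation, at 2.63 ± 0.536 FPKM in periodontitis (n = 3) and 9.45 ± 3.23 FPKM in health (SD, n = 4; log2 change -1.49, adjusted p = 0.00779). Of 39 initiation factors 1 was higher, Eif6, which keeps the subunits apart, at 50.4 ± 17.0 FPKM in periodontitis (n = 3) and 25.3 ± 2.66 FPKM in health (SD, n = 4; log2 change 0.92, adjusted p = 0.0411). Of 61 biogenesis genes 0 passed in either direction by limma, with 4 higher and 2 lower at an unadjusted p under 0.05. Of the 77 mitochondrial ribosomal protein genes 4 were higher, with Mrps5 at a log2 change of 1.55 (adjusted p = 0.00342), and 19 were higher at an unadjusted p under 0.05. Of the 83 respiratory chain genes 1 was lower.

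Of 20 genes of the mTORC1 and TOP control list 1 was lower, Mxd1, an antagonist of Myc, at 9.89 ± 2.25 FPKM in periodontitis (n = 3) and 33.4 ± 11.4 FPKM in health (SD, n = 4; log2 change -1.62, adjusted p = 0.00791). At an unadjusted p under 0.05, 8 of the 20 were lower and 1 was higher, with no share over all genes beside them. These are long genes, with a median gene length of 6950.5 bases. Their median difference from health in periodontitis 2 was -0.45. Other genes of 5000 bases and over that averaged 20 FPKM or more were at -0.36. The part of gene length in these values was not tested. Larp1, which binds the TOP tract, had 9.37, 19.9 and 19.6 FPKM in periodontitis, against 31.1, 25.8, 27.2 and 26.8 FPKM in health, a log2 change of -0.80 that did not pass (adjusted p = 0.0874). Of 11 genes around Mdm2 and p53, Sesn2 was lower (log2 change -3.04, adjusted p = 0.00302) and Cdkn2a higher (1.18, adjusted p = 0.0333). Of 9 snoRNA host genes, many of whose RNAs also start with TOP tracts, Snhg15 was higher (1.27, adjusted p = 0.0279). Without periodontitis 2, Eif6, Cdkn2a and Snhg15 no longer passed, and Eef2k, Mxd1 and Sesn2 did. Health 1, the library with the lowest ribosomal protein levels of its group, also had the highest macrophage sum, and the part of cell makeup in these values was not tested.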

How the data were processed

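The authors deposited 1 table of FPKM values per gene and library with gene length, position and biotype. The submitters' processing notes name mm10, HISAT2 2.0.5, featureCounts 1.5.0-p3 and DESeq2 without settings. Whether counting used strand, and which annotation, is not given in the sources used here. FPKM times gene length gave whole reads in each library, for 100% of nonzero values within 0.001 of a read. No 2 libraries were duplicates: read counts differed by a chi-square of at least 27.3 per degree of freedom.

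Groups and numbers come from the library names; the sample titles number the periodontitis libraries differently, title 1 being library 2 and so on. Genes averaging 1 FPKM or more were tested with limma 3.58.1 in R 4.3.3 on log2(FPKM + 1) with a variance trend, two-sided, with Benjamini-Hochberg adjustment over 12999 genes at 0.05, periodontitis minus health. A second fit subtracted each library's mean over the 80 tested ribosomal protein genes. The fits were tested on simulated data. Transcripts, protein lengths and repeats of 50 bases came from GENCODE M21, in which 81 of 83 genes had the same position. The alternatives were other scalings, pseudocounts, filters, limma voom on reads, library weights, a length trend, a replicate block and each library left out. The replicate block used only numbers found in both groups, so it left out health 1.

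The genes, lists and tests were chosen with earlier results of these data known. The rule names the 10 largest and 10 smallest relative changes, paralogs, stalk genes, X-linked genes, Rpl5, Rpl11, Rpl22, Rps6, Rps19, Rps27a, Rpsa, the extremes of level and length, and up to 4 genes per list by unadjusted p. Rps9, Rps15, Rpl13a, Rpl37rt and the pseudogenes and overlapping transcripts were named after their values were seen.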

Additional observations from a re-analysis of the deposited data

Results flagged for a closer look

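Of 37 results tested for a library standing apart within a group of 4, 5 were picked out, where chance gives about 1 in 20. In 4 of them health 1 was the low library, its gap to the nearest other health library exceeding the critical share of the group's range in Dixon's test. Rplp2 had 167 FPKM in health 1, with 314 FPKM in the nearest other health library. Rpsa had 327 FPKM in health 1 and 525 FPKM in the nearest. Rpl36, the shortest gene of the family, had 562 FPKM in health 1 and 826 FPKM in the nearest. Rps15a, the longest, had 45.9 FPKM in health 1 and 73.5 FPKM in the nearest. The 5th was Rpl3l, with 0.0384 FPKM in health 3 and 0 reads in the other health libraries, a value that rests on 1 read. The 3 periodontitis libraries were too few for this test.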

How the results depend on the processing

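The count of ribosomal protein genes called higher, 1 in the fit reported, was 0 without a filter on low values, at an average of 5 FPKM or more, at the same FPKM total, with the length trend removed, without features under 200 bases, with voom, with library weights and with a replicate block, alone or with the length trend removed. It was 2 with quantile-scaled voom, and 0 to 2 when a library was left out. The count called lower was 0, and 0 to 2 with a library left out; it was 2 without periodontitis 2 with the length trend removed, an alternative chosen after seeing the data. On the relative scale, library weights called 23 higher and 18 lower, against 0 and 0; the weight fit for that scale gave a convergence warning and the cause was not tested. Leaving out a library gave 0 to 1 higher and 0 to 2 lower, removal of the length trend 1 lower, and both together without periodontitis 2 gave 2 lower.

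All genes called higher, 732, came to 417 at the same FPKM total, 1197 with the length trend removed and 325 with the replicate block. All genes called lower, 1321, came to 2723 at the same FPKM total, 616 with the replicate block and 644 with the block and the length trend removed. The block fits also left out health 1. Without health 1 and with no block, 488 were higher and 919 lower. With a library left out, 427 to 881 were higher and 864 to 1370 lower. Libraries with the same number in the library name correlated at -0.07, -0.02 and 0.06 after group means were removed. Differently numbered libraries of the 2 groups correlated at -0.08 to 0.11. With so few libraries per group, centred on their group means, these values cannot show whether the numbers pair the libraries. Pairing by the numbers in the sample titles was not tested.

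The median log2 change of the family was 0.64 and stayed between 0.16 and 1.03, above 0, under the 22 alternatives. Rpl24 kept its direction but missed the threshold under 13 of its alternatives, with adjusted p from 0.0111 to 0.170, so its call rests on the settings. Rplp0 passed with quantile-scaled voom (adjusted p = 0.0479). Of 1404 values of single genes under alternatives, 0 called ones changed sign, and 78 uncalled ones lay on the other side of 0. Rpl24, Rps10 and the near-silent paralogs rest on few reads, which limits their precision.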
